A study of Mus musculus with 18 samples.

Results

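The genes described here take up, exchange or make amino acids in skeletal muscle: glutamine synthetase (Glul), asparagine synthetase (Asns), the glutamine and neutral amino acid transporters Slc1a5, Slc3a2 and Slc7a5, cystathionine gamma-lyase (Cth), and Gatm, which starts creatine synthesis. The 7 genes were chosen with earlier results of these data known, and each probe set that the array annotation gives to one of these 7 symbols alone was taken. That gave 9 probe sets of the 22690 on the array, 2 each for Glul and Asns and 1 for each of the other genes, and all 9 were among the 22626 tested. A gene with 2 probe sets is described by the one with the higher mean signal, and the other is given beside it. Signals are log2 RMA values, so a difference of 1 is a doubling.

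The arrays hold total RNA of soleus, a postural muscle rich in slow fibres, and of extensor digitorum longus (EDL), a fast muscle, from male C57BL/N6 mice 19 to 20 weeks old. Bion Flown (BF) mice spent 30 days in microgravity aboard the Bion M1 biosatellite. Flight Control (FC) mice were kept in standard animal facility cages, and Bion Ground (BG) mice were kept on Earth in a copy of the flight habitat. Each muscle of each group has 3 arrays, and the mice carried no transgene, deletion or drug. BF and BG mice ate paste food and FC mice ate chow. After landing, BF mice were carried to Moscow before dissection and so spent hours back in Earth gravity. Food therefore was the same in BF and BG and cannot be told apart from the group in comparisons with FC. Landing, transport and the return to gravity cannot be told apart from flight in any comparison. The labels do not say which arrays come from 1 mouse, so p-values measure the spread between arrays of a group.

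Glutamine synthetase joins ammonia to glutamate, and skeletal muscle is a main source of the glutamine in blood; in muscle the gene is known to be induced by glucocorticoids. Slc1a5 (ASCT2) exchanges small neutral amino acids such as alanine, serine and glutamine across the cell membrane. Slc7a5 (LAT1) is the light chain that carries leucine and other large neutral amino acids inward, usually against glutamine, and it reaches the membrane bound to the heavy chain Slc3a2 (CD98hc). Asparagine synthetase uses glutamine as its nitrogen donor and is a textbook target of the transcription factor ATF4, which rises in translation when amino acids run short. Cth makes cysteine from cystathionine at the end of the transsulfuration route. Gatm transfers the amidino group of arginine to glycine, and Gamt then methylates the product to creatine, which muscle mostly imports through Slc6a8.

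Some libraries stood apart before any of these genes was examined. Array medians lay between 6.17 and 6.26, and arrays of a group correlated at 0.978 or above. The lowest of these correlations, 0.978, was between BF soleus replicates 2 and 3. The 3′ minus 5′ signal of the Gapdh control probe sets, a sign of RNA breakdown, was 0.58 to 0.86 in FC soleus, 0.09 to 0.32 in BF soleus and 0.04 to 0.10 in BG soleus. Slow-fibre markers identified the muscles: their summed linear signal was 51000 to 94600 over all soleus arrays and 3780 to 20200 over all EDL arrays. In BF soleus they summed to 51000 to 67300, against 91400 to 93200 in FC soleus and 93400 to 94600 in BG soleus. None of the 6 markers in this list (Tnni1, Tnnt1, Tnnc1, Myl3, Myl2 and Myh2) passed in BF vs. BG soleus, with a median difference of -0.71. The last of them, Myh2, is a type IIa myosin and not a slow one. Other slow-fibre genes were not counted here, and the study reports a fall of Casq2, which it places in slow fibres. In BF soleus the 6 fast-fibre markers summed to 70200 to 94600, against 38200 to 45600 in FC soleus and 42700 to 51700 in BG soleus, and 4 of the 6 rose in BF vs. BG. The 7 macrophage markers summed to 2060, 3720 and 1740 in BF soleus replicates 1, 2 and 3, against 1490 to 1810 in FC soleus and 1070 to 1230 in BG soleus. Of these 7 markers 1 rose in BF vs. BG soleus and none fell. Endothelial markers summed to 843 to 1070 in BF soleus, against 1580 to 1740 in FC soleus and 1400 to 1490 in BG soleus. Tendon markers summed to 1080 to 3300 in BF soleus, against 4530 to 8110 in FC soleus and 4180 to 6540 in BG soleus. Of 4 adipocyte markers 3 rose in BF vs. BG soleus, with a summed signal of 9970, 15100 and 7090 in BF soleus replicates 1, 2 and 3, against 7630 to 9700 in BG soleus. The part of fibre type, other cells and RNA quality in the results below was not tested. In whole muscle, fewer cells of a type and less RNA per cell cannot be told apart.

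In soleus, BF vs. BG, all 7 genes passed the threshold, an adjusted p under 0.05 by limma with Benjamini-Hochberg adjustment over the 22626 probe sets. Of these, 6 rose, namely Gatm, Slc1a5, Asns, Slc7a5, Glul and Slc3a2, by 2.35-fold to 1.31-fold, and Cth fell to 0.395 of its BG level. Over all probe sets the same threshold called 22.3%, with 10.3% higher in BF and 11.9% lower in BF. The median difference of the 7 genes was 0.84, against 0.04 for all probe sets. Groups did not overlap for 7 of the 7 genes, which was true of 38.8% of all probe sets. Because the genes were chosen with such results known, these shares are a description and not a test of the set. The thresholds of the study's soleus lists add a change of more than 2-fold. By their brighter probe sets 4 of the 7 passed these (Asns, Slc1a5 and Gatm higher, Cth lower), where 3.33% of all probe sets did. The second probe sets of Glul (2.68-fold, adjusted p = 0.000701) and Asns (2.39-fold, adjusted p = 0.0187) also passed both conditions.

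**Figure D1:**
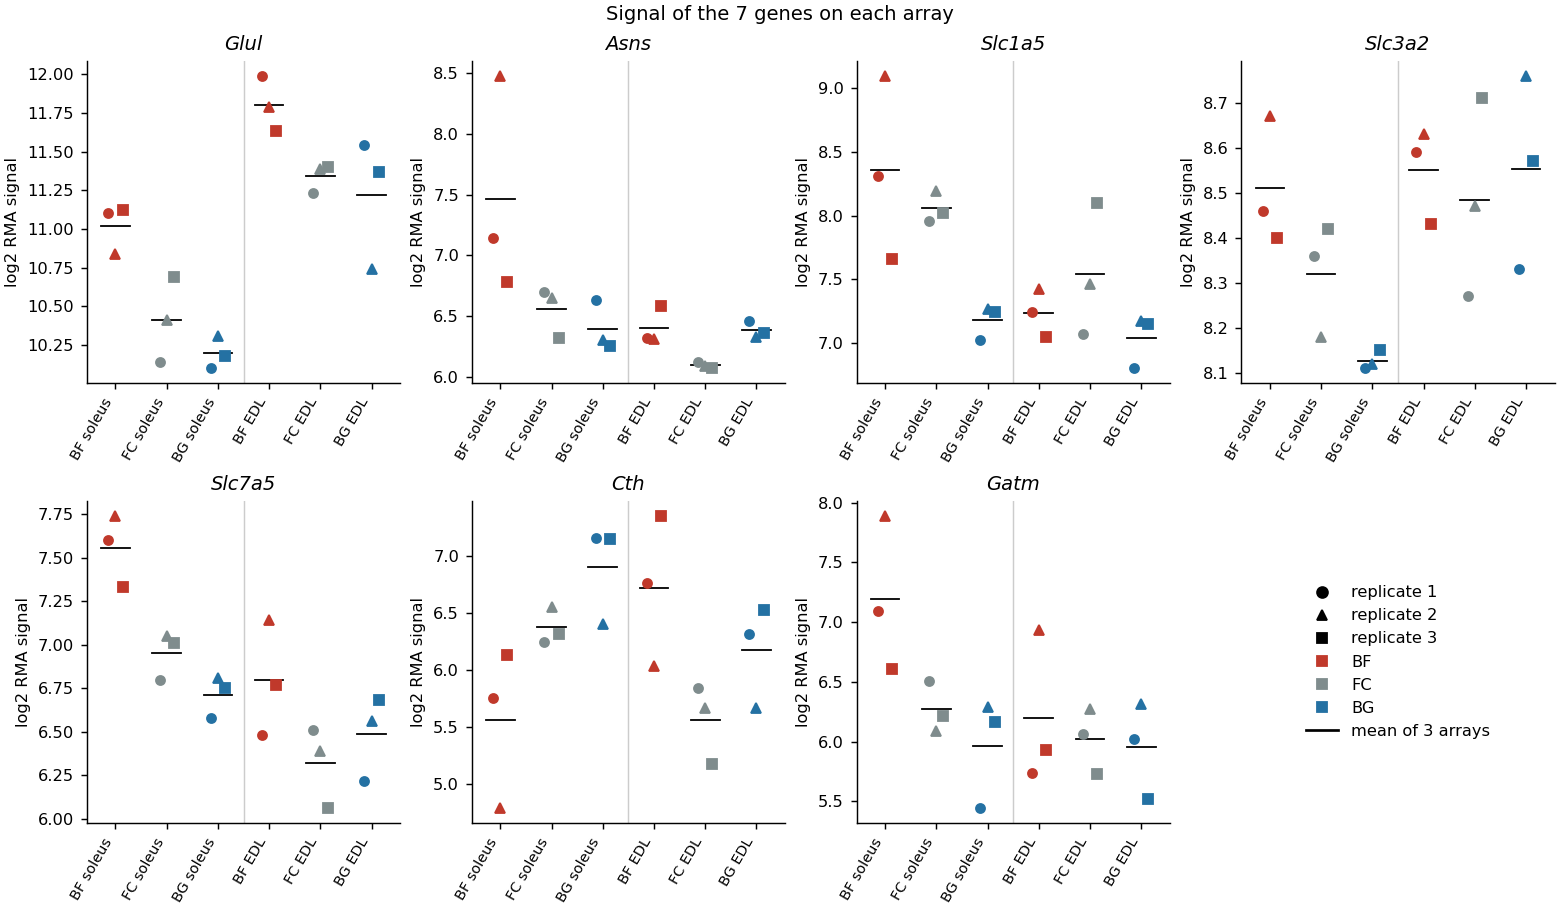
Log2 RMA signal of each of the 7 genes (1 panel each) on the 18 arrays, for BF, FC and BG in soleus (left of the line) and in EDL (right of it), with a black line at the mean of 3 arrays and a marker shape for each replicate number. In soleus the BF arrays lie above all BG arrays for 6 genes and below them for Cth, and BF soleus replicate 2 (triangle) is the highest BF soleus array for 5 genes and the lowest for Cth and Glul.

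Glul, which makes glutamine, rose in BF soleus by both of its probe sets. The brighter one read 11.10, 10.84 and 11.12 in BF soleus, against 10.14, 10.41 and 10.69 in FC soleus and 10.10, 10.31 and 10.18 in BG soleus. Every BF soleus array was above every array of both ground groups. The BF minus BG difference was 0.82 (SE 0.18, adjusted p = 0.00389), or 1.77-fold. The second probe set gave 10.12, 9.48 and 9.91 in BF soleus, against 8.24, 8.40 and 8.44 in FC soleus and 8.61, 8.22 and 8.41 in BG soleus. It moved further, by 1.42 (SE 0.24, adjusted p = 0.000701), or 2.68-fold. Both probe sets carry the suffix for transcripts of 1 gene, so the difference in size between them is not assigned to a transcript here. The Glul promoter is shown because the gene is a known glucocorticoid target and the window can be read for such a motif. It holds ACANNNTGT, a spaced palindrome of the glucocorticoid receptor's kind, in capitals below, with its first base 25 bases before the transcript start. The 100 bases before the start (RefSeq, GRCm38.p6, chr1:153899829-153899928, plus strand) read as follows.
Glul: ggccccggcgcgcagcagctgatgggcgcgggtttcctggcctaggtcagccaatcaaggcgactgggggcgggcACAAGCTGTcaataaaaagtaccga
Of 32851 mouse promoter windows of 300 bases, searched on both strands, 6.85% hold this motif, and a match is a match of letters only.

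Asns, which makes asparagine, rose in BF soleus with a wide spread between its arrays. It read 7.14, 8.48 and 6.78 in BF soleus, against 6.70, 6.65 and 6.32 in FC soleus and 6.63, 6.30 and 6.25 in BG soleus. Replicate 2 stood well above the other BF soleus arrays, and replicate 3 was just above the highest BG array. The difference was 1.07 (SE 0.28, adjusted p = 0.0115), or 2.10-fold. The second probe set, whose suffix marks probes shared with other sequences, read 5.91, 6.91 and 4.68 in BF soleus, against 4.50, 4.96 and 4.60 in FC soleus and 4.97, 4.40 and 4.34 in BG soleus. It also rose, by 1.26 (SE 0.36, adjusted p = 0.0187), although its BF and BG arrays overlapped. The Asns promoter is shown because it holds the best known ATF4 site of the genes described here. The capitals mark TGATGNAA, the core of the amino acid response element, which starts 23 bases before the transcript start in these 100 bases (RefSeq, GRCm38.p6, chr6:7693210-7693309, minus strand).
Asns: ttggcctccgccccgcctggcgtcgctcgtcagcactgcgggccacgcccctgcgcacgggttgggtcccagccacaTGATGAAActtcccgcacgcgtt
This motif is in 3.97% of the 32851 windows, searched on both strands. Windows were held for 4 of the 7 genes (Glul, Asns, Slc3a2 and Gatm). The response element was found in the Asns window, the receptor motif in the Glul window, and CACGTG, the E-box, in none of the 4, against 7.15% of all windows. The windows searched reach 250 bases before and 50 bases after the start.

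Slc1a5 and Slc7a5 rose more in BF soleus than Slc3a2, the other transporter of the 7 genes. Slc1a5 read 8.31, 9.10 and 7.66 in BF soleus, against 7.96, 8.19 and 8.02 in FC soleus and 7.02, 7.27 and 7.24 in BG soleus. BF arrays lay above all BG arrays but on both sides of the FC arrays. The BF minus BG difference was 1.18 (SE 0.28, adjusted p = 0.00627), or 2.27-fold. Slc7a5 read 7.60, 7.74 and 7.33 in BF soleus, against 6.80, 7.05 and 7.01 in FC soleus and 6.58, 6.81 and 6.75 in BG soleus. Its arrays were close within each group, and BF stood above both ground groups. The difference was 0.84 (SE 0.17, adjusted p = 0.00255), or 1.79-fold, which has the lowest adjusted p of the 7 genes by their brighter probe sets.

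Slc3a2, the heavy chain of the same leucine exchanger, moved less than its light chain. It read 8.46, 8.67 and 8.40 in BF soleus, against 8.36, 8.18 and 8.42 in FC soleus and 8.11, 8.12 and 8.15 in BG soleus. The 3 BG arrays lay close together, below all BF and FC arrays. The BF minus BG difference was 0.39 (SE 0.13, adjusted p = 0.0425), or 1.31-fold. This call is close to the threshold: over 26 other ways of processing or leaving out an array, its adjusted p ran between 0.0275 and 0.137, and it was lost in 12 of them.

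Cth, which makes cysteine, was the 1 gene of the 7 that fell in BF vs. BG soleus. It read 5.76, 4.79 and 6.13 in BF soleus, against 6.25, 6.55 and 6.32 in FC soleus and 7.16, 6.40 and 7.15 in BG soleus. All BF arrays were below all arrays of both ground groups, with replicate 2 the lowest. The difference was -1.34 (SE 0.34, adjusted p = 0.0109).

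Gatm, the first enzyme of creatine synthesis, had the highest fold of the 7 in BF vs. BG soleus by their brighter probe sets. It read 7.09, 7.89 and 6.61 in BF soleus, against 6.51, 6.09 and 6.21 in FC soleus and 5.44, 6.29 and 6.16 in BG soleus. The BF arrays did not overlap either ground group, although replicate 3 was close to the highest FC array. The difference was 1.24 (SE 0.33, adjusted p = 0.0136), or 2.35-fold.

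One BF soleus array carried part of this pattern. Replicate 2 was the highest BF soleus array for Asns, Slc1a5, Slc3a2, Slc7a5 and Gatm and the lowest for Cth and Glul. Among BF soleus arrays it also had the highest summed macrophage and adipocyte signal, and that of several other marker lists. Its slow-fibre sum was the highest (67300, against 51000 and 54300) and its fast-fibre sum the lowest (70200, against 93400 and 94600). Without replicate 2, 4 of the 7 genes passed, all higher in BF, and 18.8% of all probe sets did. Those were Glul at 0.91 (adjusted p = 0.00484), Asns at 0.57 (0.0156), Slc1a5 at 0.81 (0.027) and Slc7a5 at 0.75 (0.0118). Asns changed most in size. The other 3 kept their direction and missed the threshold, with Cth at -0.96 (adjusted p = 0.0532), Gatm at 0.89 (0.0657) and Slc3a2 at 0.31 (0.137). Of the control arrays, leaving out BG soleus replicate 1 also lost Gatm, at 0.98 (adjusted p = 0.0666), and leaving out any BG soleus array lost Slc3a2, at 0.38 to 0.40. Without replicate 1 instead, 6 of the 7 passed, and without replicate 3, 7 passed.

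**Figure D2:**
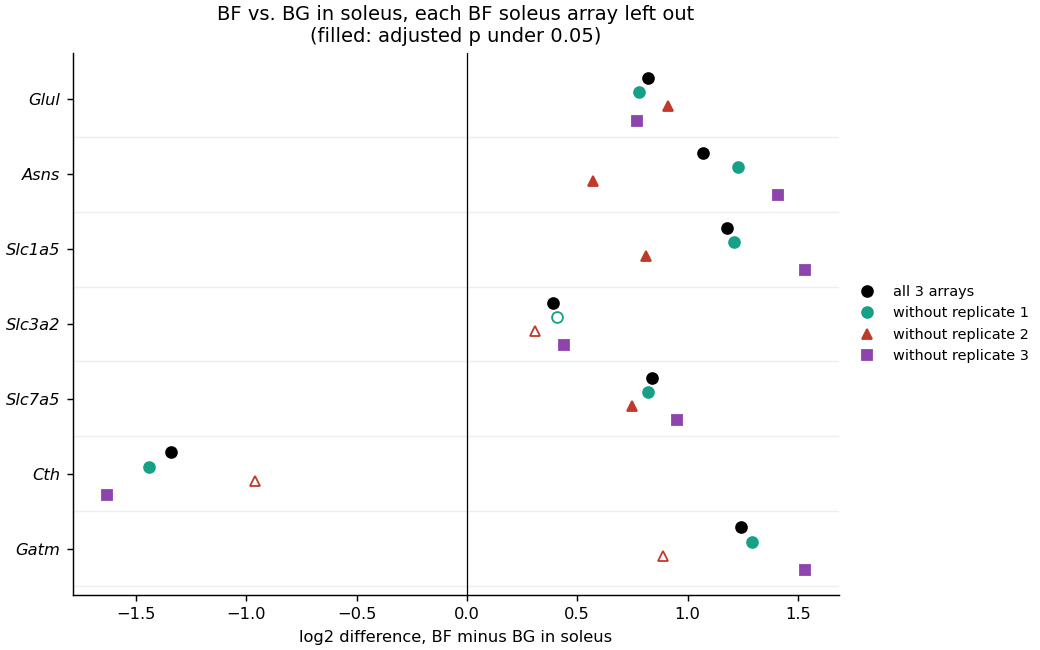
Log2 difference of BF minus BG in soleus for each of the 7 genes, with all 3 BF soleus arrays (black) and with each BF soleus array left out in turn, filled where the adjusted p is under 0.05. Without replicate 2 (triangles) Asns lies at 0.57, against 1.07 with all arrays, and Slc3a2, Cth and Gatm are unfilled, while Glul lies between 0.77 and 0.91 throughout.

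In soleus against the other ground group, BF vs. FC, 4 of the 7 genes passed, all higher in BF: Asns, Gatm, Glul and Slc7a5. All probe sets gave 23.7%, and 9.94% were higher in BF. The differences were 0.91 for Asns (SE 0.28, adjusted p = 0.0247), 0.93 for Gatm (SE 0.33, adjusted p = 0.0495), 0.61 for Glul (SE 0.18, adjusted p = 0.0202) and 0.60 for Slc7a5 (SE 0.17, adjusted p = 0.0169). The second Glul probe set gave 1.48 (SE 0.24, adjusted p = 0.000374), and BF stood above FC on every array by both. Slc1a5 differed by 0.30 (95% interval -0.28 to 0.89), Slc3a2 by 0.19 (-0.09 to 0.46) and Cth by -0.81 (-1.54 to -0.09, adjusted p = 0.0977). Groups did not overlap for 5 of the 7 genes, against 36.5% of all probe sets. None of the brighter probe sets exceeded 2-fold with an adjusted p under 0.05, where 3.99% of all probe sets did; 5 of the 7 had an unadjusted p under 0.05, and the second probe sets of Glul and Asns did pass both conditions. Without BF soleus replicate 2, Glul alone passed (0.70, adjusted p = 0.0197), and leaving out an FC soleus array left 1 or 2 genes. The Gatm call, the closest to the threshold, was lost in 15 of 26 settings. FC soleus had the RNA with the highest 3′ minus 5′ signal, and its part in these values was not tested.

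Between the ground groups in soleus, FC vs. BG, Slc1a5 passed and the other 6 genes did not, where 11.4% of all probe sets passed and 1.47% also exceeded 2-fold. FC soleus was above BG soleus on all arrays, by 0.88 (SE 0.28, adjusted p = 0.0486), a 1.84-fold change that is under the 2-fold limit. This call was lost in 19 of 26 other settings, with adjusted p up to 0.164, while the difference stayed between 0.80 and 0.93. The FC arrays of Slc1a5 thus lay within the range of the BF arrays and above the BG arrays. For the other 6 genes the FC minus BG difference ran between -0.53 (Cth) and 0.30 (Gatm). BF vs. BG and BF vs. FC share the BF arrays, so the values of the 2 comparisons are not independent.

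In EDL, BF vs. BG, none of the 7 genes passed, where 0.385% of all probe sets did; by limma's unadjusted p, 1 of the 7 was under 0.05. This was Glul, which read 11.99, 11.79 and 11.63 in BF EDL, against 11.23, 11.39 and 11.40 in FC EDL and 11.54, 10.74 and 11.37 in BG EDL. BF lay above both ground groups on every array, with a BF minus BG difference of 0.58 (95% interval 0.21 to 0.96, adjusted p = 0.191). It was the 1 gene of the 7 whose BF and BG arrays did not overlap, against 15.3% of all probe sets. None passed the study's EDL rule of more than 2-fold with an unadjusted p under 0.05, which called 0.42%. Asns differed by 0.02 (-0.56 to 0.61) and Slc3a2 by 0.00 (-0.28 to 0.27). Slc1a5 differed by 0.20 (-0.39 to 0.78), Gatm by 0.25 (-0.45 to 0.94), Slc7a5 by 0.31 (-0.05 to 0.67) and Cth by 0.55 (-0.18 to 1.27). Several of these intervals reach past 0.5, so changes of that size in EDL remain possible for those genes.

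In EDL, BF vs. FC, none of the brighter probe sets passed, where 3.77% of all probe sets did, and 3 of the 7 genes had an unadjusted p under 0.05 (Cth, Slc7a5 and Glul, all higher in BF). The second Glul probe set passed: it read 11.00, 10.55 and 10.89 in BF EDL, against 9.37, 9.68 and 9.88 in FC EDL and 10.27, 9.35 and 10.55 in BG EDL, a BF minus FC difference of 1.17 (SE 0.24, adjusted p = 0.013). Cth read 6.76, 6.04 and 7.35 in BF EDL, against 5.84, 5.67 and 5.18 in FC EDL and 6.32, 5.67 and 6.53 in BG EDL. BF EDL was thus above FC EDL in Cth, the opposite side from soleus. Its BF minus FC difference of 1.16 (SE 0.34, adjusted p = 0.0725) met the study's EDL rule, as did 0.826% of all probe sets. Between the ground groups in EDL, FC vs. BG, none of the 7 passed by limma and none had an unadjusted p under 0.05, where 0.0354% of all probe sets passed and 0.42% met the study's rule.

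**Figure D3:**
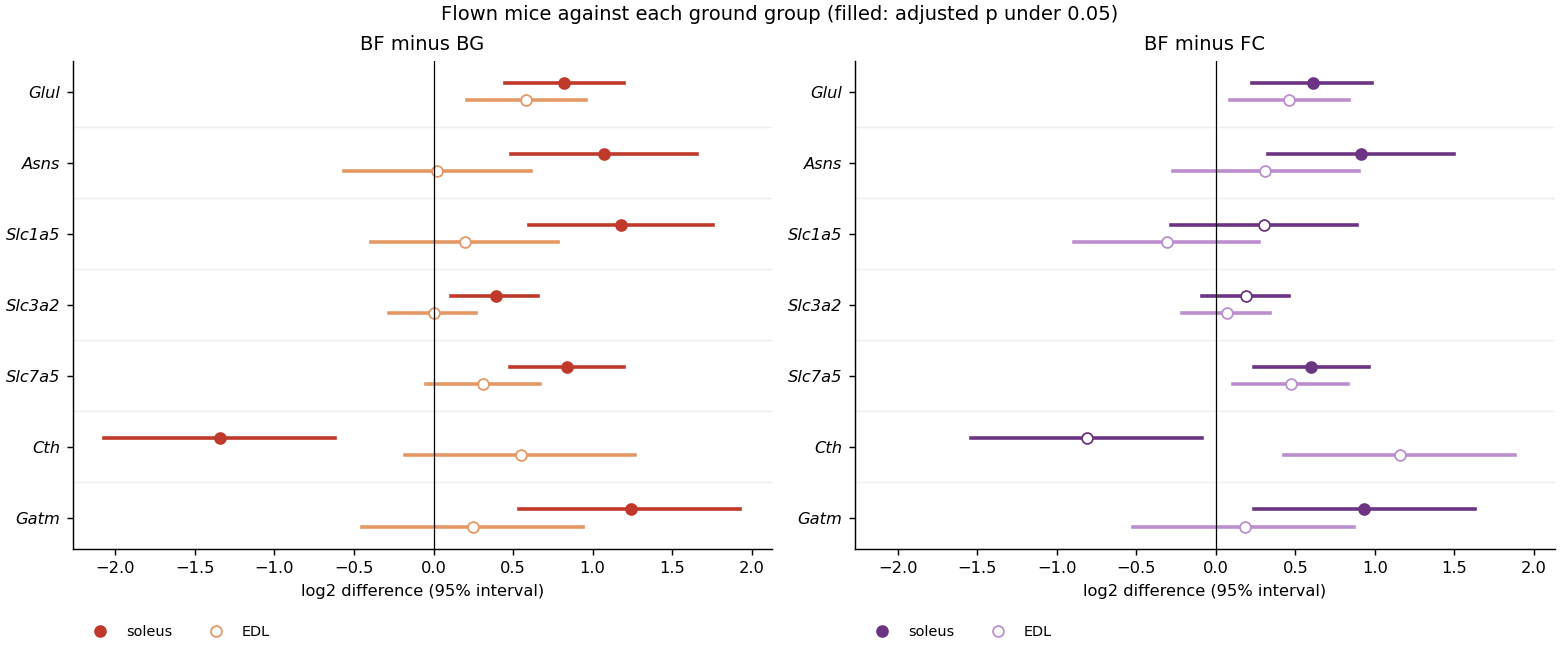
Log2 differences of BF minus BG (left) and BF minus FC (right) for the 7 genes in soleus (dark) and EDL (light), with 95% intervals from limma and filled points where the adjusted p is under 0.05. In soleus all 7 points are filled against BG and 4 against FC, none is filled in EDL, and Cth is the gene whose soleus and EDL points lie on opposite sides of 0 in both panels.

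Whether the difference itself differed between the muscles was tested by the interaction of group and muscle. Cth passed in both forms of this test: BF minus BG was -1.34 in soleus and 0.55 in EDL, a gap of -1.89 (SE 0.49, adjusted p = 0.026). BF minus FC was -0.81 in soleus and 1.16 in EDL, a gap of -1.97 (SE 0.49, adjusted p = 0.048). The first call was lost without BG soleus replicate 1 or 3, BF EDL replicate 1 or BG EDL replicate 2 (adjusted p = 0.0507 to 0.065, gap -1.87 to -1.64). It was also lost by ordinary one-way contrasts (adjusted p = 0.0685). The second call was lost in 16 of 26 settings (adjusted p up to 0.129). With same-numbered soleus and EDL arrays of a group treated as a replicate block, both passed (adjusted p = 0.0141 and 0.0233). The threshold called 9.27% of all probe sets in the first form and 1.79% in the second. None of the other 6 genes passed either, although for BF vs. BG 6 of the 7 genes had an unadjusted p under 0.05. In that comparison the gap was 1.05 for Asns (adjusted p = 0.0982), 0.99 for Slc1a5 (0.115), 0.54 for Slc7a5 (0.162), 0.99 for Gatm (0.181), 0.39 for Slc3a2 (0.182) and 0.24 for Glul (0.562). A greater change of these 6 genes in soleus than in EDL is therefore not shown by this test.

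The muscles also differed within each group. Soleus vs. EDL in BF, 5 of the 7 genes passed, with 11.7% of all probe sets: Slc1a5 (1.12), Asns (1.06) and Slc7a5 (0.76) were higher in soleus, and Cth (-1.16) and Glul (-0.78) were lower. In FC 2 passed, with 15.1% of all probe sets: Slc7a5 was higher in soleus (0.63) and Glul lower (-0.92). In BG 2 passed, with 16.1% of all probe sets, and both were lower in soleus: Glul (-1.02) and Slc3a2 (-0.43). Glul was thus lower in soleus than in EDL in all 3 groups. Without BF soleus replicate 2, none of the 7 passed for soleus vs. EDL in BF by limma, with Asns at 0.56 and Cth at -0.77 but Slc1a5 at 0.75, Slc7a5 at 0.67 and Glul at -0.69 (adjusted p = 0.0528 to 0.204). Leaving out a BF EDL array also lost calls while most differences stayed close to those with all arrays. Without replicate 1 these were Glul (-0.69), Slc7a5 (0.60), Asns (1.02) and Cth (-1.13), without replicate 2 Asns (1.01), and without replicate 3 Slc1a5 (1.03) and Cth (-0.84). Leaving out BF soleus replicate 1 lost Cth at -1.25. In BG the Slc3a2 call was lost without any 1 soleus array and without EDL replicate 2 or 3 (-0.44 to -0.33), and in FC the Slc7a5 call was lost without soleus replicate 2 or 3 or EDL replicate 3 (0.50 to 0.60).

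**Figure D4:**
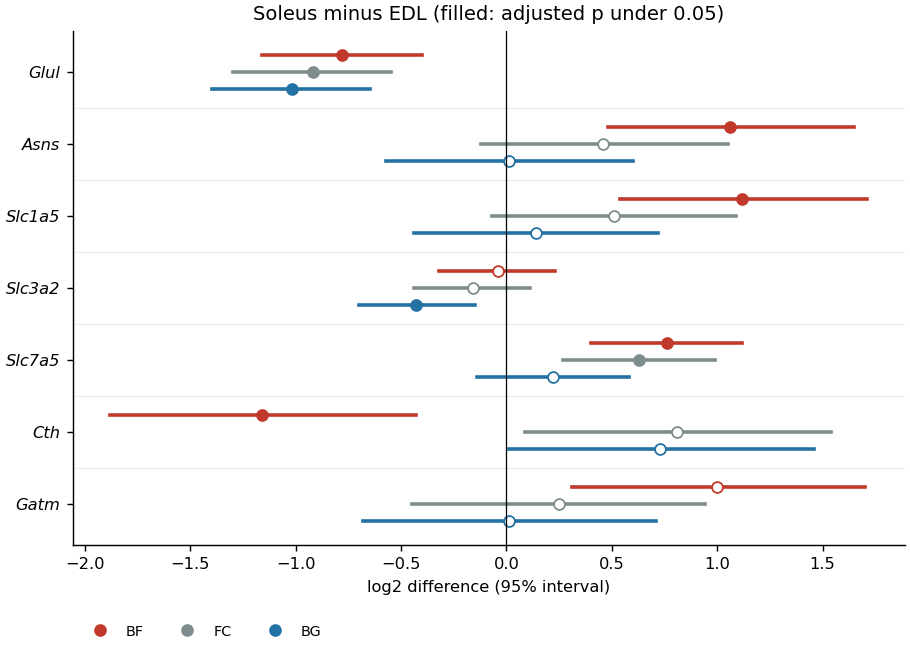
Log2 difference of soleus minus EDL for each of the 7 genes in BF, FC and BG, with 95% intervals from limma and filled points where the adjusted p is under 0.05. Glul lies below 0 and is filled in all 3 groups, and Cth lies at -1.16 in BF but at 0.81 in FC and 0.73 in BG.

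The order of the 6 groups was the same for Asns and Slc7a5 and differed among the other genes. For Glul the order of mean signals was BF EDL (11.80 ± 0.18), FC EDL (11.34 ± 0.09), BG EDL (11.22 ± 0.42), BF soleus (11.02 ± 0.16), FC soleus (10.41 ± 0.27) and BG soleus (10.20 ± 0.11; SD, n = 3 each). Arrays of neighbouring groups were apart between BF EDL and FC EDL and between BF soleus and FC soleus, and overlapped at the other steps. For Asns, Slc7a5 and Gatm, BF soleus came first and was apart from FC soleus, the next group, by 0.91, 0.60 and 0.93. The 5 groups below it formed a series in which neighbours overlapped, except that FC EDL lay 0.29 below BG EDL in Asns. Slc1a5 also had BF soleus (8.36 ± 0.72) at the top, but each of its neighbouring groups overlapped. Slc3a2 covered the narrowest range, with group means between 8.55 ± 0.21 in BG EDL and 8.12 ± 0.02 in BG soleus, and BG soleus alone was apart from its neighbour. Cth had its highest mean in BG soleus (6.90 ± 0.44) and its lowest in BF soleus (5.56 ± 0.69) and FC EDL (5.56 ± 0.34), with overlap at every step.

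Other genes of the same pathways were counted from 6 lists, with the named genes beyond the 4 largest changes of a list chosen after their values were seen. Counts are to be read against the 22.3% of all probe sets that passed in soleus BF vs. BG, 10.3% higher and 11.9% lower, and no list was tested for enrichment. In soleus BF vs. BG, 5 of 19 other amino acid transporters measured rose and 1 fell (10.3% and 11.9% of all probe sets), with a list median of 0.24 against 0.04 for all probe sets. Slc38a4, which carries small neutral amino acids with sodium, read 8.43, 7.95 and 8.39 in BF soleus, against 7.31, 7.17 and 7.34 in FC soleus and 7.33, 7.74 and 7.33 in BG soleus. It rose by 0.79 (SE 0.17, adjusted p = 0.00364), and BF was above both ground groups on every array. The glutamate transporter Slc1a3 (0.90), the serine and small amino acid exchanger Slc7a10 (0.88), the cationic amino acid transporter Slc7a2 (0.80) and Slc7a6 (0.44) also rose. Slc38a10 fell (-0.69). The Slc1a3 call was lost without BF soleus replicate 2 (0.54), BG soleus replicate 2 (0.89) or BG soleus replicate 3 (0.85). That of Slc7a2 was lost without BF soleus replicate 1 (0.47) or 3 (0.74) or any BG soleus array (0.77 to 0.82).

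Of 17 other enzymes of amino acid synthesis and conversion measured, 6 rose and 3 fell in soleus BF vs. BG, where 22.3% of all probe sets passed, with a list median of -0.05. Gpt2, the mitochondrial alanine aminotransferase, changed most. It read 10.41, 9.18 and 10.48 in BF soleus, against 7.35, 8.09 and 8.14 in FC soleus and 7.02, 7.94 and 7.26 in BG soleus, a rise of 2.62 (SE 0.32, adjusted p = 4.71e-05). All BF soleus arrays lay between the ground soleus arrays and the EDL arrays, which read 11.23 to 11.56 in BF EDL, 10.86 to 11.77 in FC EDL and 11.30 to 11.41 in BG EDL. Phgdh and Psat1, the first enzymes of serine synthesis, rose by 1.05 and 0.96, the second losing its call without BF soleus replicate 2 (0.74) or BG soleus replicate 1 (0.81) or 3 (0.78). Phgdh read 8.60, 8.75 and 8.37 in BF soleus, against 8.16, 8.06 and 7.43 in FC soleus and 7.55, 7.42 and 7.59 in BG soleus. Around Cth in sulfur amino acid metabolism, Ahcy (0.77) and Cbs (0.49), which lie upstream of it, rose, and so did Cdo1 (2.18), which oxidises cysteine. Cth thus fell while Ahcy, Cbs and Cdo1 rose, Ahcy and Cbs having been named after their values were seen. Other listed enzymes of this metabolism did not pass where measured. The aspartate aminotransferases Got1 (-0.55) and Got2 (-0.40) and the mitochondrial serine hydroxymethyltransferase Shmt2 (-0.53) fell.

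Of 6 other creatine genes, Gamt, the second enzyme after Gatm, rose by 1.13 (adjusted p = 0.0226), reading 7.51, 5.67 and 6.19 in BF soleus, against 5.70, 5.98 and 5.52 in FC soleus and 5.51, 5.02 and 5.46 in BG soleus. The creatine importer Slc6a8 fell by 0.45 (adjusted p = 0.0314), and the mitochondrial creatine kinase Ckmt2 fell by 0.93 (adjusted p = 0.000142). Ckmt2 was lower on all BF soleus arrays (12.57 to 12.77) than on the FC (13.25 to 13.45) and BG (13.54 to 13.68) soleus arrays. The Gamt call was lost without BF soleus replicate 1 (0.60) or BG soleus replicate 2 (0.97). That of Slc6a8 was lost without BF soleus replicate 1 or 3 or BG soleus replicate 1 or 3 (-0.49 to -0.31), and the mean of all its probe sets differed by -0.02.

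Of 17 measured genes listed for the ATF4 and amino acid response, 3 rose and 2 fell in soleus BF vs. BG. This share was near the 22.3% of all probe sets, and the list median was 0.04, the same as for all probe sets. The list left out the genes described above, which rose apart from Cth, among them the ATF4 target Asns. Phgdh and Psat1, which rose, were counted with the enzymes. The share and median therefore hold for the listed genes and not for all targets of ATF4. The listed genes that rose were Atf3 (3.14), a stress-induced transcription factor, the translation repressor Eif4ebp1 (1.13) and Atf4 itself (0.59). Atf5 (-0.94) and Cebpb (-0.95), a partner of ATF4 in some contexts, fell. Other listed targets did not pass, among them Trib3 (-0.23), Ddit3 (-0.03), Sesn2 (0.30) and Chac1 (0.95, adjusted p = 0.106). Atf3 varied widely, with 12.68, 13.21 and 11.49 in BF soleus, against 8.66, 8.19 and 8.14 in FC soleus and 10.39, 8.75 and 8.81 in BG soleus. Its call was lost without BF soleus replicate 1 or 2 or BG soleus replicate 2 or 3, where it differed by 2.77 to 3.03. Of 18 measured cytosolic aminoacyl-tRNA synthetases, many of which ATF4 is known to induce, Tars rose (0.37) and Hars (-0.68) and Eprs (-0.36) fell, a share below the 22.3% of all probe sets, with a list median of -0.05. Each of these 3 calls was lost without 1 or another soleus array: Tars without BF replicate 2 or BG replicate 3 (0.31 and 0.33), Hars without BF replicate 3 or BG replicate 2 (-0.50 and -0.54), and Eprs without any BF array or BG replicate 2 or 3 (-0.40 to -0.29).

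Of 15 measured glucocorticoid-responsive genes, 3 rose and none fell in soleus BF vs. BG (6 had an unadjusted p under 0.05). Of all probe sets 22.3% passed, 10.3% higher and 11.9% lower in BF, and the list median was 0.09. In BF vs. FC 5 rose and 3 fell in soleus, where 23.7% of all probe sets passed. In EDL BF vs. FC 4 rose and none fell (6 had an unadjusted p under 0.05), where 3.77% of all probe sets passed. The 3 that rose in soleus BF vs. BG were the transcription factor Cebpd (1.30), the metal-binding protein Mt2 (1.27) and the receptor co-chaperone Fkbp5 (1.23). Fkbp5 read 10.92, 9.97 and 11.09 in BF soleus, against 9.26, 9.72 and 9.92 in FC soleus and 9.34, 9.19 and 9.77 in BG soleus. Tsc22d3 (0.49), Per1 (0.54) and Klf15 (-0.61) did not pass. The Mt2 call was lost without BF soleus replicate 1 (1.28) or 2 (1.08) or BG soleus replicate 2 (0.90). Cebpd differed by 0.68 by the mean of all its probe sets, still past the threshold. In EDL BF vs. BG, none of the 6 lists had a passing gene except Eif4ebp1, which read 10.31, 10.99 and 10.63 in BF EDL, against 9.85, 9.90 and 9.88 in FC EDL and 9.71, 9.53 and 9.10 in BG EDL (1.20, SE 0.17, adjusted p = 0.00501).

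Against FC in soleus, where 23.7% of all probe sets passed, 2 of the 19 transporters rose and 2 fell, and 7 of the 17 enzymes rose and 3 fell. None of the 6 creatine genes rose and 2 fell by limma (3 had an unadjusted p under 0.05). Of the ATF4 list 3 rose and 1 fell, and of the synthetases 1 rose and 3 fell. In EDL BF vs. FC, where 3.77% of all probe sets passed, 2 transporters, 1 enzyme, 1 gene of the ATF4 list and 4 glucocorticoid-responsive genes rose.

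**Figure D5:**
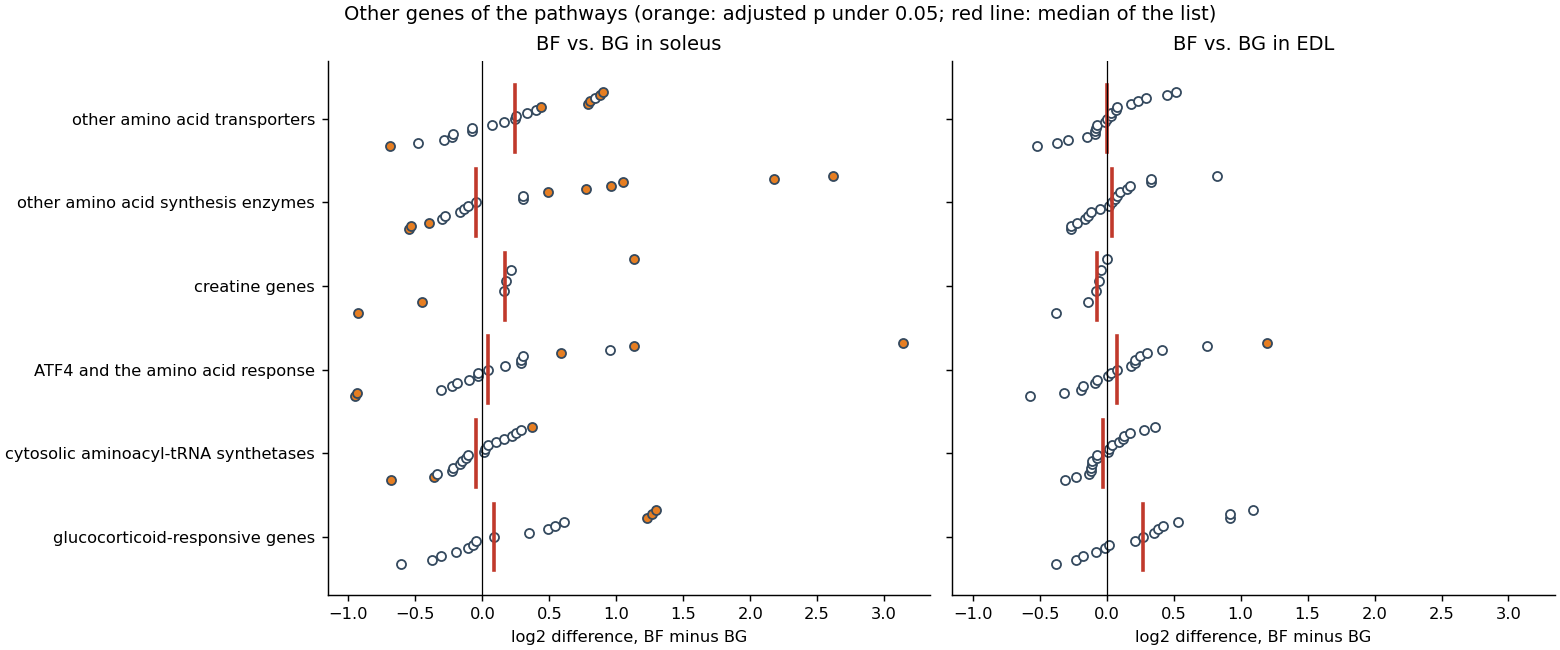
Log2 difference of BF minus BG for every measured gene of 6 lists (1 point each), in soleus (left) and EDL (right), with orange points where the adjusted p is under 0.05 and a red line at the median of each list. In soleus passing genes lie on both sides of 0 in 5 lists and above 0 in the glucocorticoid list, and in EDL the 1 orange point is Eif4ebp1.

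Across the 18 arrays, after the mean of each muscle was subtracted, Cth ran opposite to the other 6 genes, with Pearson correlations between -0.78 (Slc1a5) and -0.14 (Glul). The other 6 correlated with each other at 0.33 to 0.78, the last of these between Slc7a5 and Gatm; Slc1a5 and Slc3a2 reached 0.76 and the exchanger partners Slc3a2 and Slc7a5 reached 0.55. These are descriptions over arrays that share the group differences, and BF soleus replicate 2 is among the points. Over 12393 genes the patterns most like each member were Art3, Dtna and Tle4 for Glul (0.846 to 0.828), Il6, Srm and Fzd5 for Asns (0.942 to 0.937), and Lyst, Tkt and Nnmt for Slc1a5 (0.935 to 0.909). They were Nxf1, Pabpc1 and Ebf2 for Slc3a2 (0.841 to 0.818), Sowahc, Hspb1 and Sfrp5 for Slc7a5 (0.878 to 0.861), and Ptprf, Sncg and Sema5a for Gatm (0.926 to 0.912). For Cth they were Pank1, Ngrn and Klf15 (0.91 to 0.851). Il6, named for Asns, had a low signal, with group means between 3.1 in FC soleus and 4.04 in BF soleus. Its SD in BF soleus was 0.78. Pank1, which starts coenzyme A synthesis, fell by 1.53 in soleus BF vs. BG (adjusted p = 0.000375), beside the fall of Cth. Srm, which makes spermidine, rose by 0.95 (adjusted p = 0.011) and the small heat shock protein Hspb1 by 1.34 (adjusted p = 0.000403). Pank1, Srm and Hspb1 were picked for following a member over these same arrays. Their change in the same direction follows from that choice and is not a further result.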

How the data were processed

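The deposited values are log2 RMA signals of Affymetrix mouse expression arrays. The authors made them with Partek from all 18 arrays at once: RMA subtracts background, gives every array the same distribution of signals (quantile normalization), takes log2 and summarises the probes of a set by median polish. Quantile normalization removes any difference in overall signal between muscles or groups. Arrays were grouped by the muscle, group and number in their titles. limma 3.58.1 in R 4.3.3 fitted 1 mean for each of 6 groups over the 18 arrays, with moderated variances (12 residual and 5.1 prior degrees of freedom) and Benjamini-Hochberg adjustment over 22626 probe sets. Probe sets of spiked-in or other controls (64) were not tested, and no filter on signal was used. The methods state a one-way ANOVA, which was run as an alternative. The fit was tested on simulated data. The number of arrays limits precision. Probe sets were named from the platform annotation, and 12393 genes were named alone. Markers were summed on the linear scale. Genes beyond the members were named from 6 lists, partly by size of change and partly after their values were seen. Patterns alike were named by Pearson correlation. The members and lists were chosen with earlier results of these data known. Promoter windows are RefSeq's, and figures were drawn with matplotlib 3.10.9. The descriptions of BF EDL replicates 2 and 3 name other Bion missions than their source names do, which was taken as a slip.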

Additional observations from a re-analysis of the deposited data

Results flagged for a closer look

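Some differences between BF and BG, or BF and FC, were not the same in both muscles by the interaction test of limma. Cth differed by -1.89 (SE 0.49, adjusted p = 0.026) between the muscles for BF vs. BG and by -1.97 (SE 0.49, adjusted p = 0.048) for BF vs. FC. Among the genes named from the lists, the BF minus BG difference was greater in soleus for Gpt2 (2.57, adjusted p = 0.00408), Phgdh (1.17, adjusted p = 0.00619) and Slc38a4 (0.87, adjusted p = 0.0327). It was lower in soleus for Cebpb (-1.20, adjusted p = 0.0303), Ckmt2 (-0.85, adjusted p = 0.0121), Got1 (-0.64, adjusted p = 0.0346) and Slc38a5 (-0.46, adjusted p = 0.0489). Slc38a5 did not pass within either muscle, and its signal was low, between 3.92 and 4.45 in BF and BG arrays. For BF vs. FC the same gap passed for Slc38a4 (1.57, adjusted p = 0.00379) and Gpt2 (2.01, 0.0268), and not for Phgdh (0.71, 0.11), Ckmt2 (-0.60, 0.102), Got1 (-0.47, 0.202), Cebpb (-0.76, 0.259) or Slc38a5 (-0.13, 0.725). For BF vs. BG the gaps of Gpt2, Phgdh and Ckmt2 passed in all 26 other settings run, and each of the others named here lost its call when 1 of several arrays was left out.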

How the results depend on the processing

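With 3 arrays a group, precision is limited by their number, and a gene near the threshold can gain or lose its call with 1 array. Of the 7 genes by their brighter probe sets, the number passing in soleus BF vs. BG was 7. It was 4 to 7 with an array left out and 4 by the study's thresholds. For BF vs. FC in soleus it was 4, 1 to 4 with an array left out, 2 by ordinary one-way contrasts and 0 by the study's thresholds. For FC vs. BG in soleus it was 1, 0 or 1 with an array left out, and 0 by a separate fit of the muscle, ordinary contrasts, eBayes with trend and robust, subtracted array medians, the mean of all probe sets and the study's thresholds. For BF vs. BG in EDL it was 0, and 1 by array quality weights (Glul). For BF vs. FC in EDL it was 0, 0 or 1 with an array left out, 2 by array quality weights (Glul and Cth), and 1 by the mean of all probe sets and by the study's thresholds. For soleus vs. EDL in BF it was 5, 0 to 6 with an array left out, 2 by ordinary contrasts and 3 by the study's thresholds. In BG it was 2, 1 or 2 with an array left out, and 1 by subtracted array medians and by the study's thresholds. In FC it was 2, 1 to 3 with an array left out, 5 by array quality weights and 0 by the study's thresholds. The test of BF vs. BG between the muscles gave 1, 0 to 3 with an array left out, 0 by ordinary contrasts and 4 by array quality weights. That of BF vs. FC gave 1, 0 or 1 with an array left out, and 0 by ordinary contrasts and by eBayes with trend and robust. The study's thresholds add a 2-fold limit, and in EDL they use the unadjusted p; for the other settings the cause was not tested. Subtracting array medians moved any difference by at most 0.074.

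Replicate numbers were not shown to pair the arrays, since no label names a mouse. Same-numbered arrays deviated together (correlation over 0.1) in 6 of 9 pairs across the muscles of a condition, against 1 of 18 with unlike numbers. All 3 FC pairs were among the 6. Within soleus the counts were 3 of 9 against 1 of 18, and within EDL 4 of 9 against 4 of 18. A replicate block within each muscle gave 6 of the 7 genes for BF vs. BG in soleus, 6 for soleus vs. EDL in BF and unchanged counts for the other 9 comparisons, and the calls over all probe sets were 5159 with the block, against 5038 without it, for BF vs. BG in soleus. A replicate block shared by same-numbered muscles of a condition gave 6 for soleus vs. EDL in BF, with Gatm added (higher in soleus, adjusted p = 0.0367), and unchanged counts for the other 4 comparisons that involve both muscles.

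Some differences that did not pass the test changed sign. With an array left out, FC minus BG in EDL ran from -0.12 to 0.28 for Glul, from -0.18 to 0.04 for Slc3a2 and from -0.15 to 0.25 for Gatm. BF minus BG in EDL ran from -0.06 to 0.07 for Asns and from -0.12 to 0.48 for Gatm. BF minus FC in EDL ran from -0.04 to 0.18 for Slc3a2 and from -0.19 to 0.41 for Gatm, and in soleus from -0.07 to 0.65 for Slc1a5. Soleus minus EDL in BG ran from -0.10 to 0.08 for Asns and from -0.20 to 0.27 for Gatm, and in BF from -0.12 to 0.01 for Slc3a2. The gap of BF vs. FC between the muscles ran from -0.03 to 0.30 for Slc7a5. The mean of all probe sets gave -0.15 for Glul in FC minus BG EDL. Array quality weights gave -0.03 for Asns both in BF minus BG EDL and in soleus minus EDL of BG, and -0.20 for Gatm in BF minus FC EDL.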
